A study of Mus musculus with 10 samples.

Results

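The DNA replication machinery comprised 44 genes, picked by symbol in a table of 35663 gene entries, and every one of the 44 was found. They were grouped here by role into 9 genes of origin licensing, 6 subunits of the MCM helicase, 6 genes of helicase activation, 9 of the polymerases and primase, 6 of the sliding clamp and its loader, 3 of single-strand binding, 2 of Okazaki fragment processing and 3 of nucleotide supply. RNA was sequenced from whole kidneys of mouse embryos of strain C57/b6 at embryonic stage E13.5. There were 4 wild-type libraries, 3 Foxd1GC control libraries and 3 Ntn1SPKO libraries, the mutants being Foxd1GC+ with Ntn1flox/flox. Foxd1GC carries Cre recombinase with GFP at the Foxd1 locus and Cre acts in stromal progenitors, so control and mutant kidneys both lack 1 working copy of Foxd1, and Ntn1 was targeted in the stromal lineage alone of a kidney that also holds nephron progenitors, ureteric bud, vessels and blood. The series design names 6 libraries, the 3 controls and 3 mutants, and the sources used here did not say whether the wild-type libraries were prepared with them. The labels do not tie libraries to embryos or litters, so p-values measure the spread between these libraries only.

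Before S phase, the origin recognition complex with Cdc6 and Cdt1 loads the ring of MCM subunits onto DNA, and Geminin (Gmnn) blocks a repeat of this step in the same cycle. Cdc45 and the GINS complex then turn the ring into a moving helicase, primase and polymerase α start each strand, and polymerases δ and ε extend them on the PCNA clamp. Most of these genes are transcribed as cells enter S phase, many of them under E2F factors, and their transcripts are commonly read as a sign of cycling cells in growing tissues such as the embryonic kidney.

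Values are FPKM, fragments per kilobase of coding sequence and per 1e6 fragments, and are listed by replicate number within a group. Rough depth was 26.4 to 31.4 M fragments per library, where 1 M is 1e6. Netrin-1 (Ntn1) measured 31.9, 28.3, 27.1 and 46.3 FPKM in wild-type, 40.7, 24.2 and 51.4 in Foxd1GC control and 16.3, 13.1 and 10.7 in Ntn1SPKO libraries, with no overlap between mutants and either other group (log2 difference from controls -1.48, SE 0.29, limma adjusted p = 0.447, 0.0619 to 1 over the alternatives). Summed stromal and nephron progenitor markers covered similar ranges in the 3 groups, for stroma 430 to 487 FPKM in wild-type, 443 to 477 in control and 445 to 452 in mutant libraries. Foxd1GC control replicate 3 stood apart. Its 6 ureteric bud markers summed to 54.5 FPKM against 139 to 174 in the other 9 libraries, with none of the 6 at 0, while its 8 skeletal muscle markers summed to 861 FPKM against 57.1 and 193 in the other controls, 103 to 184 in wild-type and 15.4 to 67.4 in Ntn1SPKO libraries. All 8 muscle markers were highest in that library, and in the whole list only Myf5 in Foxd1GC control replicate 2 was at 0. Blood content differed too. The 7 erythroid markers summed to 12118, 6211 and 14028 FPKM in controls and 3640 to 7978 in wild-type libraries. In Ntn1SPKO libraries they summed to 3855, 4303 and 14908 FPKM. Wild-type replicate 3 had the largest summed FPKM, 1002638 against 795829 to 874966 elsewhere. Y-linked genes averaged 22.1 to 24.5 FPKM in wild-type replicate 3, Foxd1GC control replicate 2 and the 3 mutants and at most 0.254 FPKM in the other 5 libraries, so embryo sex was uneven between groups.

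All 44 genes were detected in every library, between 8.12 FPKM (Orc1 in Ntn1SPKO replicate 3) and 399 FPKM (Pcna in wild-type replicate 3). Their median level was 42.7 FPKM, against 12.7 FPKM over the 14534 genes averaging 0.5 FPKM or more, and 43 of the 44 were above that all-gene median. Gins3, a GINS subunit, was lowest at 9.42 FPKM, and Pcna, the sliding clamp, was highest at 323 FPKM. The 44 genes made up 0.290% to 0.354% of the summed FPKM. Replicates lay close together: the SD within groups on the log2 scale had a median of 0.117 over the 44 genes. That median was 0.180 over all genes, many of them at lower levels, and 33 of the 44 were below it. Over genes at 10 to 40 FPKM the median SD was 0.144. Orc1, the largest subunit of the origin recognition complex, was the exception with an SD of 0.617, above that of 98.0% of the 5121 genes at 10 to 40 FPKM, and the next highest SD of a replication gene was 0.242.

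**Figure D1:**
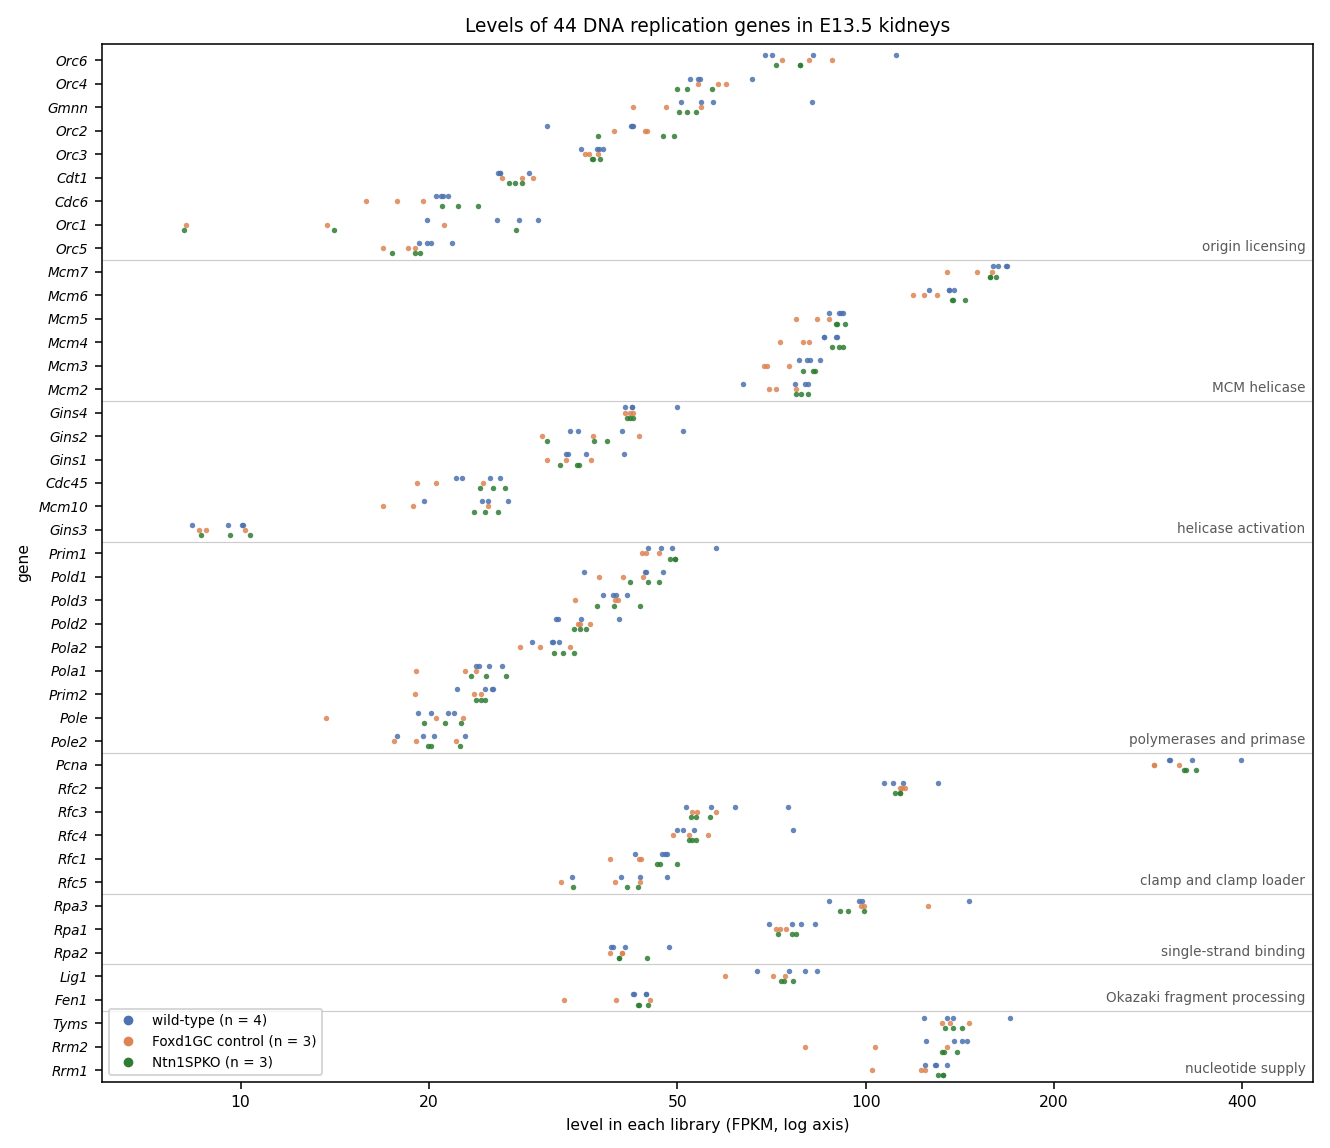
FPKM (log axis) of each of the 44 replication genes in each library, grouped by role, with a point per library coloured by group. The points of a gene lie close together, from Gins3 near 9.42 to Pcna near 323 FPKM, except for the wide spread of Orc1.

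Subunits of the same complex differed in level. Mcm2 to Mcm7 form a ring with a copy of each, and the ratio of the highest to the lowest of the 6 was 1.96 to 2.64 by library, with Mcm7 at a mean of 158 FPKM and Mcm2 at 75.8 FPKM. The same ratio was 4.02 to 5.06 for the 4 GINS subunits, 2.57 to 3.50 for the 5 subunits of replication factor C, and 3.56 to 9.93 for the 6 Orc genes, where Orc1 set the upper end.

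Promoter windows of RefSeq on GRCm38.p6, each of 300 bases with 250 before the start site, were matched for 36 of the 44 genes, as 44 windows. Prim2, Gins4, Gins1, Mcm4, Pole, Rfc2, Gins2 and Gmnn had none. The window letters were searched for E2F words, the 8-letter forms TTTCCCGC, TTTCGCGC, TTTGCCGC and TTTGGCGC, on both strands. They stood in 15 of the 44 windows (34.1%, 15 genes) and in 744 of all 32851 windows (2.26%). Shares were similar in 19 other replication genes (33.3% of windows) and 20 genes of S phase entry (28.6%). They were lower in 13 genes of nucleotide and chromatin supply (11.1%) and 23 G2/M genes (4.17%). The 7-letter forms without the first T, which include the longer ones, stood in 59.1% of the windows of replication genes and 9.57% of all windows. For other words the shares were 56.8% against 37.4% for CCAAT, 70.5% against 35.7% for GGGCGG, 6.82% against 13.6% for TATAAA and 11.4% against 17.9% for TTTGAA. In the related lists, in the order above, GGGCGG stood in 71.4%, 78.6%, 77.8% and 83.3% of windows. CCAAT stood in 28.6%, 35.7%, 66.7% and 79.2%. A high GGGCGG share was thus not particular to the replication genes. A match is a run of letters and not a known site. 3 windows are printed whole, for Orc1, Cdc6 and Mcm3, which had the smallest p-values of the 44 genes in Foxd1GC control against wild-type, 5′ to 3′ on the gene's strand with the 8-letter E2F words, in either reading, in capitals.
Orc1, chr4:108579204-108579503, + strand: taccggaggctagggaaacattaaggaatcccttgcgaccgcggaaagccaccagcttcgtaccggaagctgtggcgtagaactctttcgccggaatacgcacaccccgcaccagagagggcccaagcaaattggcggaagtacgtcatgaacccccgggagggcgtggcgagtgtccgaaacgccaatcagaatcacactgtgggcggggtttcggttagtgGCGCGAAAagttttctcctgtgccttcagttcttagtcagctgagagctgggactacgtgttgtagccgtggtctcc
Cdc6, chr11:98907901-98908200, + strand: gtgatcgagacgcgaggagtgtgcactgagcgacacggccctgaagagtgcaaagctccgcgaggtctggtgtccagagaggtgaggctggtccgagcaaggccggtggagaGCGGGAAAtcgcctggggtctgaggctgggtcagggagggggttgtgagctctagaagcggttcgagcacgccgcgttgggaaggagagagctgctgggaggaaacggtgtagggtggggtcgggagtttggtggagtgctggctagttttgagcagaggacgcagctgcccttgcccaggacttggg
Mcm3, chr1:20820263-20820562, - strand: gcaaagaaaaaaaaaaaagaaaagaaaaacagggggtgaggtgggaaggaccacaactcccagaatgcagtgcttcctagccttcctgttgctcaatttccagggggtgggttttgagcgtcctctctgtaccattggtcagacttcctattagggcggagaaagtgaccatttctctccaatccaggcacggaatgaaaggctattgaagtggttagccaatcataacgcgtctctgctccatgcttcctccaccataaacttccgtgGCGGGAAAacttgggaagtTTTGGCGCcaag

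The 15 genes held 21 such words, 9 reading along the gene and 12 against it, with first bases from -165 to 39 counted from the start site at 0. Mcm5 and Mcm6 each held a pair that overlap on opposite strands, and these are printed with the words of Mcm7, Cdt1, Pola1, Rfc3 and Lig1, so that most roles are represented, in the reading in which the capitals spell the word.
Mcm5, chr8:75109348-75109371, + strand, word from -153 to -146: ccaagaacTTTCGCGCcaaaacgt
Mcm5, chr8:75109352-75109375, - strand, word from -149 to -142: ctggacgtTTTGGCGCgaaagttc
Mcm6, chr1:128359800-128359823, - strand, word from -110 to -103: cgtatgctTTTGGCGCgaaaagtg
Mcm6, chr1:128359796-128359819, + strand, word from -106 to -99: cacgcactTTTCGCGCcaaaagca
Mcm6, chr1:128359737-128359760, - strand, word from -47 to -40: tggacgggTTTGGCGCgaagtagc
Mcm7, chr5:138172033-138172056, + strand, word from -165 to -158: acaccctgTTTCCCGCggttcgaa
Mcm7, chr5:138171852-138171875, - strand, word from 16 to 23: tgacgacgTTTCGCGCcaatttcg
Cdt1, chr8:122568039-122568062, + strand, word from 32 to 39: actaccttTTTGGCGCcatggcgc
Pola1, chrX:93632278-93632301, + strand, word from -138 to -131: ggagtgcaTTTGGCGCcctgtgat
Rfc3, chr5:151651203-151651226, - strand, word from -10 to -3: tcgcacgcTTTCGCGCtcgcggga
Rfc3, chr5:151651193-151651216, + strand, word from 0 to 7: agtagagtTTTCCCGCgagcgcga
Lig1, chr7:13278844-13278867, - strand, word from 26 to 33: cacacagaTTTCGCGCgcactttg

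**Figure D2:**
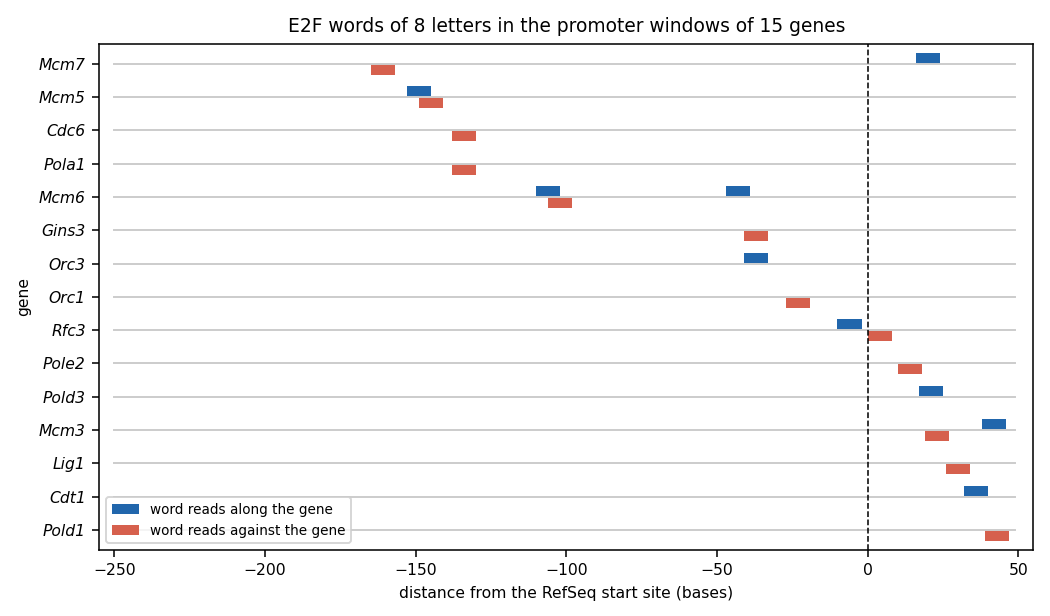
Positions of the 21 E2F words of 8 letters in the promoter windows of 15 replication genes, as distance in bases from the RefSeq start site, with the reading of each word marked. The words run from -165 to 39 and most lie within 50 bases of the start site.

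The study's main comparison asked what loss of Ntn1 from the stroma did, Ntn1SPKO against Foxd1GC control. More replication genes were higher than lower in the mutants, by small amounts, and none passed the test. On log2(FPKM + 0.1) in limma, with Benjamini-Hochberg adjustment over all 14550 genes tested, 0 of the 44 had an adjusted p under 0.1, against 0.0687% of all genes, and the lowest adjusted p was 0.447. By direction 35 were higher and 9 lower, with a median log2 difference of 0.11 against 0.01 over all genes. Other scalings gave 30 higher and 14 lower (quantile normalization) or 40 and 4 (the same total per library). At an unadjusted p under 0.05 there were 7 higher (Mcm4, Cdc6, Mcm3, Mcm6, Rfc1, Cdc45 and Prim1) and 0 lower, against 5.49% and 5.17% of all genes. In 9 genes every mutant library was above every control, and in 1, Rfc2, every mutant library was below, against 11% and 8.91% of all genes. Both counts of higher genes exceeded the background share and both counts of lower genes were below it. In bulk RNA, a different number of cycling cells and a different amount of RNA per cycling cell cannot be told apart.

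These counts leaned on single libraries. Of the 6 libraries, Foxd1GC control replicate 3 was lowest for 25 of the 44 genes, control replicate 1 for 8, control replicate 2 for 3 and any mutant for 8. The mean of the mutants exceeded control replicate 3 by a median of 0.17 on the log2 scale, control replicate 1 by 0.07 and control replicate 2 by 0.00. Without control replicate 3 the median difference was 0.05, and 4 genes had an unadjusted p under 0.05 (Mcm4, Cdc6, Mcm3 and Mcm6). The count was 3 without control replicate 1, 14 without control replicate 2, 1 without mutant replicate 1 and 4 without either other mutant. With embryo sex as a covariate the median was 0.00, and 24 genes were higher and 20 lower. All mutants were male and control replicate 2 was the only male control, so that fit set the mutants against this library alone. The G2/M markers, 27 genes of mitosis, were all lowest in control replicate 3, which also had the ureteric bud and muscle levels given above. The part of these in the differences was not tested.

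**Figure D3:**
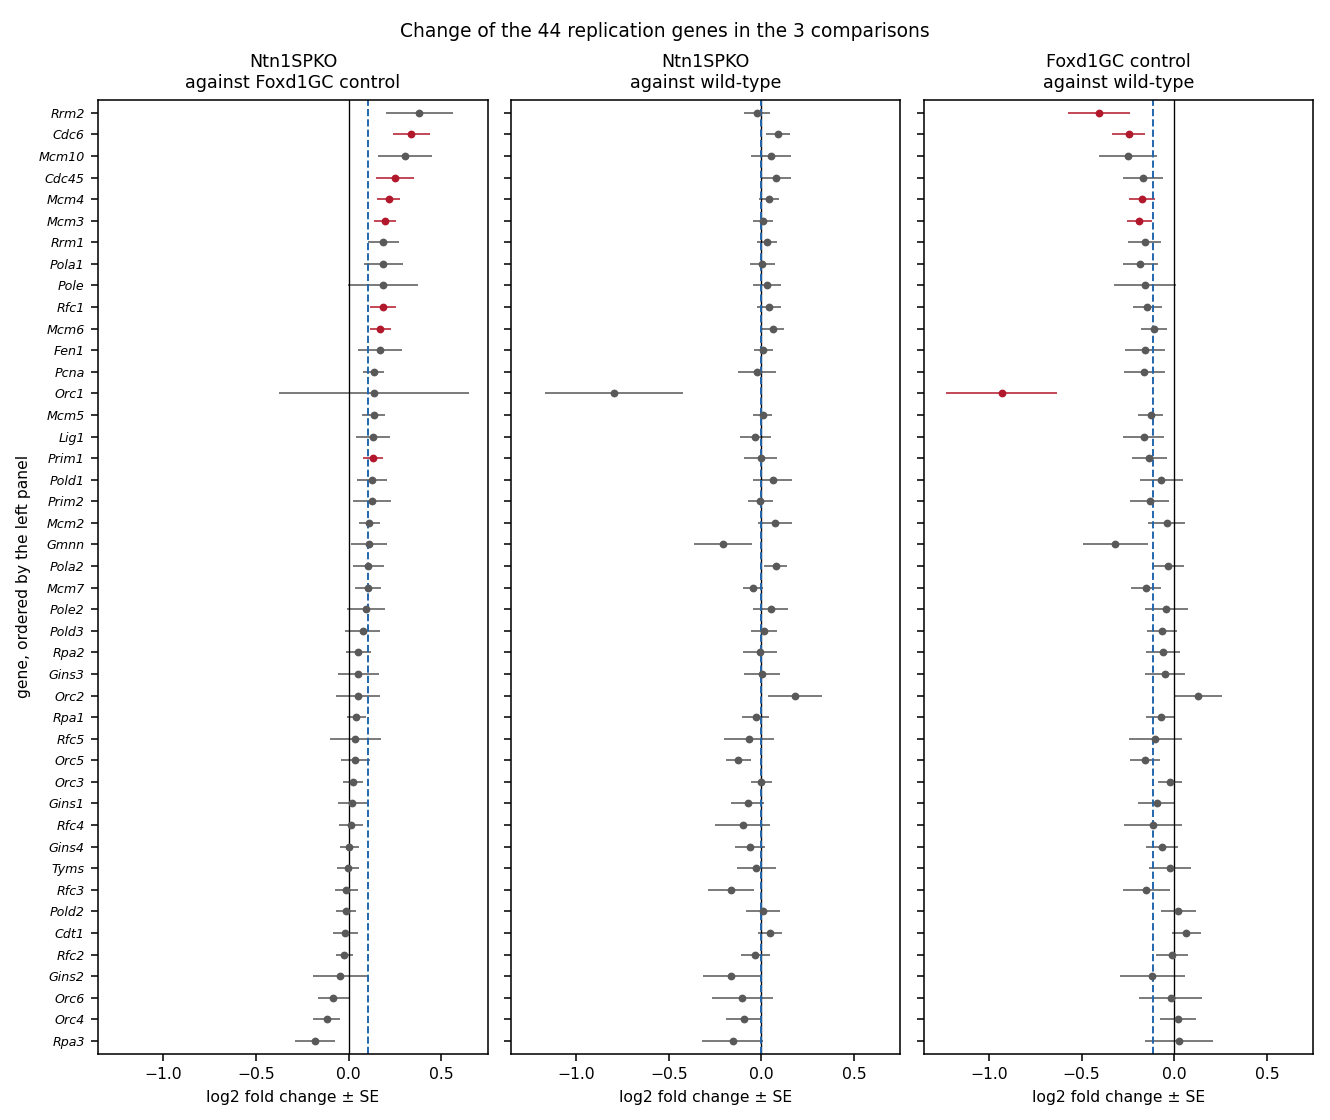
Log2 difference with its SE for each of the 44 replication genes in the 3 comparisons, with red for an unadjusted p under 0.05 and a blue dashed line at the median of the 44. The medians are 0.11 for Ntn1SPKO minus Foxd1GC control, 0.00 for Ntn1SPKO minus wild-type and -0.12 for Foxd1GC control minus wild-type, and the red points are 7, 0 and 5.

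The other comparisons placed both Foxd1GC groups beside wild-type kidneys, and since each pair of comparisons shares libraries their values are given side by side only. Between Ntn1SPKO and wild-type kidneys the replication genes were evenly split, 22 higher and 22 lower with a median log2 difference of 0.00, and 0 of the 44 did not overlap. None had an adjusted p under 0.1, against 0.0693% of the 14432 genes tested, and 0 had an unadjusted p under 0.05, against 2.45% higher and 3.31% lower over all genes. The share of all genes without overlap was 3.56% higher and 3.54% lower. Rescaling every library to the same total gave 32 higher and 12 lower, with a median of 0.05, and 34 and 10 when mitochondrial and globin genes were left out of the total. With embryo sex as a covariate 18 were higher and 26 lower, with a median of -0.04. Wild-type replicate 3 was then the only male wild-type library, so that fit set the all-male mutants against it alone.

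Foxd1GC control kidneys were lower than wild-type kidneys for 39 of the 44 genes and higher for 5, with a median of -0.12 against -0.01 over all genes. Again 0 of the 44 had an adjusted p under 0.1, against 0.00685% of 14594 genes, and the lowest was 0.665. At an unadjusted p under 0.05 there were 5 lower (Orc1, Cdc6, Mcm3, Mcm4 and Rrm2) and 0 higher, against 3.23% and 3.84%. Without overlap 8 were lower and 0 higher, against 4.04% of all genes in each direction. Quantile normalization gave 10 higher and 34 lower. Leaving out control replicate 3 gave a median of -0.08 and 1 gene at an unadjusted p under 0.05, Orc1. The count was 1 without control replicate 1 or wild-type replicate 2, 2 without wild-type replicate 1, 3 without wild-type replicate 4, 6 without wild-type replicate 3 (12 higher and 32 lower) and 9 without control replicate 2. Leaving out control replicate 3 and wild-type replicate 3 together gave 14 higher, 30 lower and a median of -0.05.

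**Figure D4:**
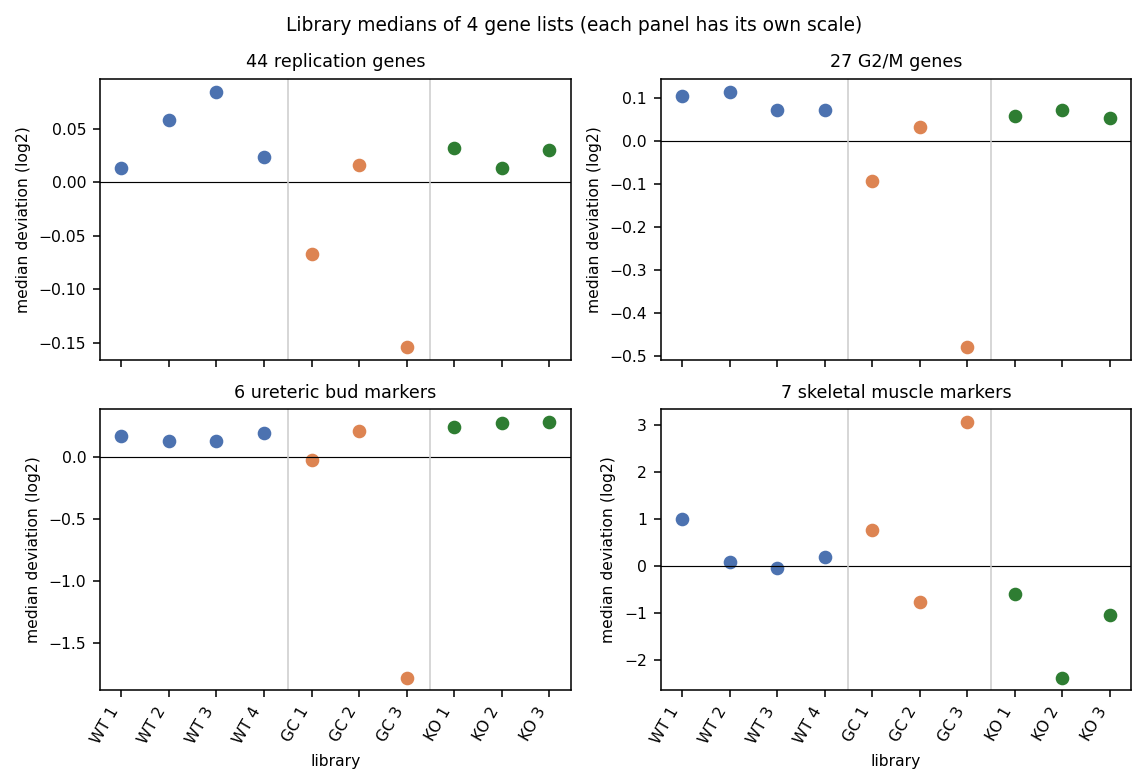
Median log2 deviation of each library from the mean of the 10 libraries over 44 replication genes, 27 G2/M genes, 6 ureteric bud markers and the 7 skeletal muscle markers past the filter on low values, with a point per library. Foxd1GC control replicate 3 is lowest in the first 3 panels (-0.15, -0.48 and -1.78) and highest in the last (3.05).

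Wild-type replicate 3 differed by gene length. It was the highest of 10 libraries for 19 replication genes. For the 21 with coding sequences under 1500 bases its median deviation was 0.255 on the log2 scale, with 20 above their mean, and for the 23 longer ones it was 0.00. Over 13069 genes the same medians were 0.13 and -0.14. In Foxd1GC control replicate 3 the direction was the same on a lower base, -0.05 for the short and -0.22 for the long genes, with 1 of 23 long ones above its mean. This length split moved with the 2 libraries. In mutants against controls the 23 long genes were 22 higher and 1 lower, with a median log2 difference of 0.13. The 21 short ones were 13 higher and 8 lower, with a median of 0.02. Medians were -0.14 (long) and -0.09 (short) in controls against wild-type, and 0.04 and -0.06 in mutants against wild-type. The part of the length split in these group differences was not tested beyond the fits without the 2 libraries.

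**Figure D5:**
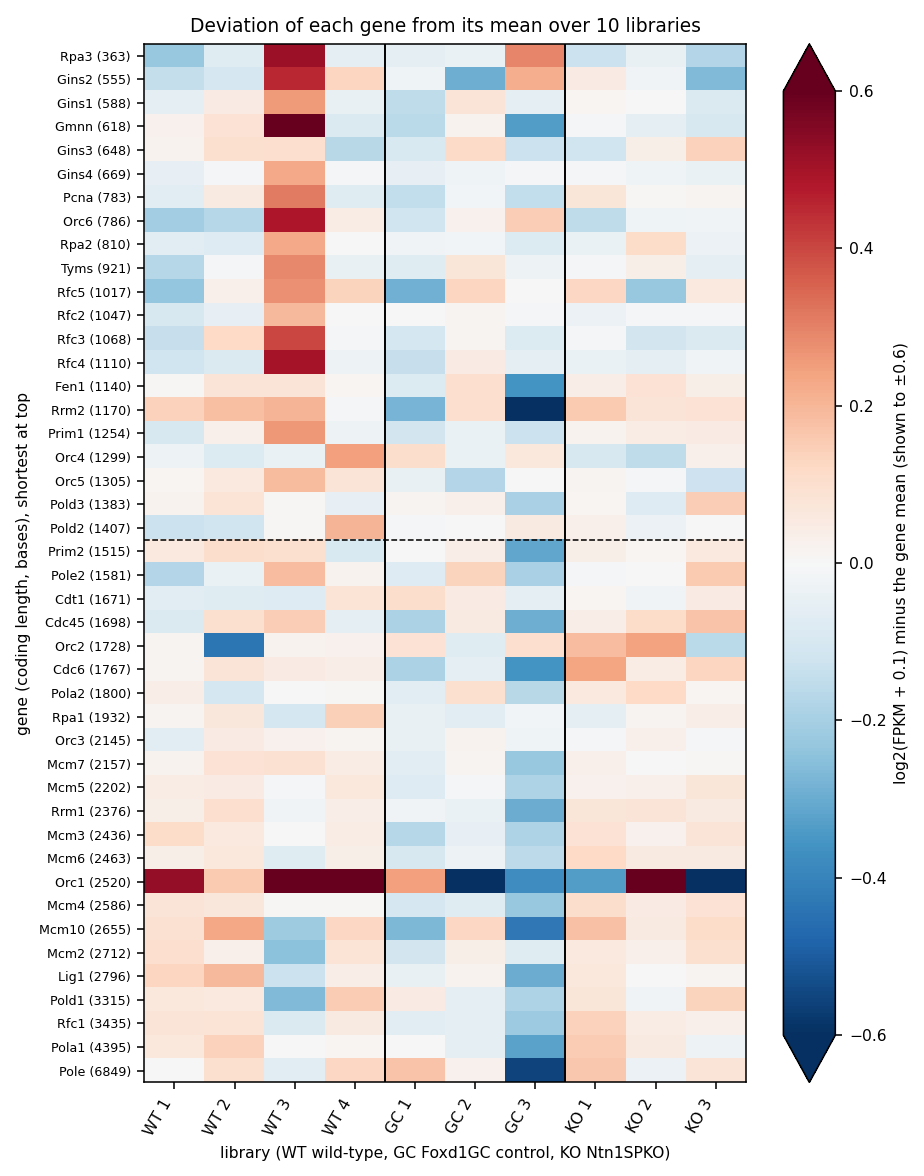
Log2 deviation of each replication gene in each library from its mean, as a heat map with genes sorted by coding length. Wild-type replicate 3 is high among the short genes, and Foxd1GC control replicate 3 is low among the long ones.

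Origin licensing held the most variable gene. Orc1 measured 25.7, 19.9, 29.9 and 27.9 FPKM in wild-type, 21.2, 8.18 and 13.7 in Foxd1GC control and 14.1, 27.6 and 8.12 in Ntn1SPKO libraries. The 4 wild-type values lay within 19.9 to 29.9 FPKM, while 1 control and 1 mutant were in that range and the other 4 were at 14.1 FPKM or less. The mutants and controls overlapped throughout (log2 difference 0.14, SE 0.51). Against wild-type, Orc1 was lower by 0.93 on the log2 scale in controls (SE 0.30, limma unadjusted p = 0.0150, adjusted p = 0.665, 0.303 to 1 over the alternatives) and lower by 0.80 in mutants (SE 0.37, adjusted p = 0.903, 0.319 to 0.999). Leaving out 1 library in turn gave -1.26 to -0.58 for controls and -1.25 to -0.37 for mutants. Among its 2493 coding words of 31 bases, 14.7% also occur in other genes, most of them in the antisense gene Gm12743. That gene has no entry among the deposited values. Whether reads were assigned by strand was not given in the sources used here, so reads from the shared stretch could not be assigned to 1 of the 2 genes.

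Orc2, another core subunit, measured 42.1, 30.9, 42.3 and 42.4 FPKM in wild-type, 44.3, 39.6 and 44.7 in Foxd1GC control and 47.4, 49.3 and 37.3 in Ntn1SPKO libraries. It had the largest positive difference of the 44 from wild-type in both other groups, 0.18 in mutants (SE 0.15) and 0.13 in controls (SE 0.13), with overlap, and wild-type replicate 2 alone was low. Orc5 measured 19.3, 19.9, 21.8 and 20.2 FPKM in wild-type, 18.5, 16.9 and 19.05 in Foxd1GC control and 19.3, 18.99 and 17.5 in Ntn1SPKO libraries. Its controls were all below wild-type (log2 difference -0.16, SE 0.08, exact permutation p = 0.0571, the smallest that 3 against 4 libraries allow), and the mutants overlapped wild-type (-0.12, SE 0.07). Orc6, which binds the other 5 subunits, measured 69.1, 70.9, 112 and 82.3 FPKM in wild-type, 73.5, 81.2 and 88.3 in Foxd1GC control and 71.9, 78.5 and 78.6 in Ntn1SPKO libraries, where only wild-type replicate 3 was far from the rest.

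Cdc6, the ATPase that brings the MCM ring to the origin, measured 20.6, 21.4, 21.1 and 20.9 FPKM in wild-type, 17.8, 19.6 and 15.9 in Foxd1GC control and 24.00, 20.98 and 22.3 in Ntn1SPKO libraries. All 3 controls were below all wild-type and all mutant libraries. It was 26.3% higher in mutants than controls (log2 difference 0.34, SE 0.10, limma unadjusted p = 0.0138, adjusted p = 0.447, 0.146 to 1 over the alternatives). Leaving out 1 library in turn gave 0.26 to 0.41, with 5 of 6 fits at an unadjusted p under 0.05. Controls were 0.25 lower than wild-type on the log2 scale (SE 0.09, unadjusted p = 0.0236, adjusted p = 0.665, 0.238 to 1), which came to -0.17 (unadjusted p = 0.0710) without control replicate 3, and mutants were 0.09 above wild-type (SE 0.06) with overlap. Of its coding words 26.1% also occur in other genes, chiefly the pseudogene Gm9430, which was at most 0.0247 FPKM.

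Cdt1, the partner of Cdc6 in loading, measured 26.03, 25.97, 25.8 and 28.9 FPKM in wild-type, 29.3, 28.2 and 26.2 in Foxd1GC control and 27.5, 26.9 and 28.2 in Ntn1SPKO libraries. Gmnn, its inhibitor, measured 54.6, 56.97, 81.9 and 50.6 FPKM in wild-type, 47.99, 54.5 and 42.5 in Foxd1GC control and 53.5, 51.7 and 50.3 in Ntn1SPKO libraries. Cdt1 varied little in any group, with log2 differences of -0.02 to 0.06 in the 3 comparisons, and Gmnn was high in wild-type replicate 3 only. The Gmnn to Cdt1 ratio was 2.10, 2.19, 3.17 and 1.75 in wild-type, 1.64, 1.93 and 1.62 in control and 1.95, 1.92 and 1.78 in Ntn1SPKO libraries. These overlapped between mutants and controls, and the lowest exact two-sided permutation p, for controls against wild-type, was 0.114 (0.343 adjusted over the 9 ratio tests). The Orc1 to Orc2 ratio did not overlap between wild-type, at 0.611 to 0.707, and controls, at 0.207 to 0.478, or mutants, at 0.218 to 0.560 (exact permutation p = 0.0571 in each, 0.257 adjusted). Orc3 and Orc4 had log2 differences of -0.12 to 0.02 in the 3 comparisons.

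The MCM helicase unwinds the template. In Ntn1SPKO against control kidneys 6 of 6 subunits were higher with a median log2 difference of 0.15, 3 at an unadjusted p under 0.05 and 4 without overlap, against 5.49% and 11% of all genes. With embryo sex as a covariate, which set the mutants against control replicate 2 alone, Mcm7 turned lower. Mcm3 measured 84.4, 81.5, 78.2 and 80.6 FPKM in wild-type, 69.5, 75.5 and 68.8 in Foxd1GC control and 82.9, 79.5 and 82.4 in Ntn1SPKO libraries. Mcm4 measured 90.2, 89.7, 85.8 and 85.7 FPKM in wild-type, 79.5, 81.2 and 73.03 in Foxd1GC control and 92.04, 88.4 and 90.8 in Ntn1SPKO libraries. In both genes the 3 controls were below every other library, and mutants and wild types overlapped. Mcm4 was 16.1% higher in mutants than controls (log2 difference 0.22, SE 0.06, limma unadjusted p = 0.0105, adjusted p = 0.447, 0.150 to 1 over the alternatives), and each of 6 fits without a library kept an unadjusted p under 0.05. Mcm3 was 14.6% higher (0.20, SE 0.06, unadjusted p = 0.0142, adjusted p = 0.447, 0.142 to 1), as in 4 of those 6 fits. Against wild-type, controls were lower by 0.17 in Mcm4 (SE 0.07) and 0.19 in Mcm3 (SE 0.07, unadjusted p = 0.0264, adjusted p = 0.665, 0.270 to 1), which became 0.13 and 0.16 lower without control replicate 3 (unadjusted p = 0.118 and 0.0743). Mutants differed from wild-type by 0.04 in Mcm4 (SE 0.05) and 0.01 in Mcm3 (SE 0.05).

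Mcm5 measured 90.7, 91.2, 87.5 and 91.8 FPKM in wild-type, 83.4, 87.4 and 77.4 in Foxd1GC control and 89.7, 89.9 and 92.6 in Ntn1SPKO libraries. Its controls were below every library of the other groups, by a narrow gap, and the mutants were 9.77% higher than controls (log2 difference 0.13, SE 0.06, adjusted p = 0.447, 0.185 to 1). Mcm2 measured 81.01, 77.2, 63.7 and 80.03 FPKM in wild-type, 70.1, 77.4 and 71.9 in Foxd1GC control and 78.7, 77.4 and 80.9 in Ntn1SPKO libraries. Control replicate 2 was level with the lowest mutant, wild-type replicate 3 was the lowest library, and mutants were 8.12% above controls with overlap. Mcm6 and Mcm7 were 0.17 and 0.11 higher in mutants than controls on the log2 scale and 0.06 higher and 0.05 lower than in wild-type.

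Helicase activation showed less order, with a median log2 difference of 0.04 between mutants and controls. Cdc45, the helicase cofactor, measured 22.1, 25.1, 26.04 and 22.6 FPKM in wild-type, 20.6, 24.4 and 19.2 in Foxd1GC control and 24.2, 25.3 and 26.5 in Ntn1SPKO libraries. Mcm10, which helps to start the helicase, measured 24.3, 26.8, 19.7 and 24.9 FPKM in wild-type, 18.9, 24.9 and 16.9 in Foxd1GC control and 25.8, 23.6 and 24.6 in Ntn1SPKO libraries. In both genes control replicate 2 lay among the mutants and the other 2 controls lay below them. The log2 differences were 0.25 for Cdc45 (SE 0.10, limma unadjusted p = 0.0491, adjusted p = 0.447, 0.141 to 1) and 0.30 for Mcm10 (SE 0.14, adjusted p = 0.450, 0.125 to 1), and without control replicate 3 that of Cdc45 was 0.17 (unadjusted p = 0.121). Gins2 measured 33.7, 34.7, 50.95 and 40.8 FPKM in wild-type, 36.6, 30.3 and 43.3 in Foxd1GC control and 38.5, 36.7 and 30.95 in Ntn1SPKO libraries. Its groups overlapped, with the highest value in wild-type replicate 3 and the next in control replicate 3, and Gins1, Gins3 and Gins4 differed by 0.00 to 0.05 between mutants and controls.

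Among the polymerases and primase 8 of 9 genes were higher in mutants than controls, with a median log2 difference of 0.13. Prim1, the catalytic primase subunit, measured 44.9, 48.98, 57.5 and 46.99 FPKM in wild-type, 44.5, 46.7 and 43.9 in Foxd1GC control and 48.7, 49.5 and 49.6 in Ntn1SPKO libraries. Every mutant was above every control, for a log2 difference of 0.13 (SE 0.05, limma unadjusted p = 0.0492, adjusted p = 0.447, 0.188 to 1), which held an unadjusted p under 0.05 in 1 of 6 fits without a library. Pola1, the catalytic subunit of polymerase α, measured 24.98, 26.2, 23.8 and 24.1 FPKM in wild-type, 23.8, 22.9 and 19.1 in Foxd1GC control and 26.5, 24.7 and 23.4 in Ntn1SPKO libraries. Its controls were below all wild-type libraries and overlapped the mutants (0.19, SE 0.10). Pold1, the catalytic subunit of polymerase δ, measured 44.4, 44.3, 35.5 and 47.4 FPKM in wild-type, 43.99, 40.8 and 37.4 in Foxd1GC control and 44.8, 41.97 and 46.8 in Ntn1SPKO libraries. Pole, that of polymerase ε, measured 20.2, 21.5, 19.2 and 21.99 FPKM in wild-type, 22.7, 20.5 and 13.7 in Foxd1GC control and 22.5, 19.6 and 21.3 in Ntn1SPKO libraries. Both were low in control replicate 3, Pold1 also in wild-type replicate 3, and the other libraries of the 3 groups overlapped. Pola2, Prim2, Pold2, Pold3 and Pole2 differed by -0.01 to 0.13 between mutants and controls and by -0.01 to 0.08 between mutants and wild types.

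Of the clamp and its loader, Pcna measured 307, 333, 399 and 305 FPKM in wild-type, 289.7, 318 and 289.8 in Foxd1GC control and 338, 323 and 325 in Ntn1SPKO libraries. The mutants were above all 3 controls and lay inside the wild-type range. The log2 difference from controls was 0.14 (SE 0.06, adjusted p = 0.447, 0.157 to 1). In its coding sequence 74.7% of the 31-base words recur in other genes, most in the pseudogene Pcna-ps2, which was at most 1.23 FPKM. Rfc3, a clamp loader subunit, measured 51.6, 61.7, 75.2 and 56.6 FPKM in wild-type, 52.8, 57.6 and 53.7 in Foxd1GC control and 56.4, 52.6 and 53.6 in Ntn1SPKO libraries, with all groups overlapping and wild-type replicate 3 highest. Rfc1, the large subunit, was 0.18 higher in mutants than controls (SE 0.07, unadjusted p = 0.0362), with 1 of 6 fits without a library at an unadjusted p under 0.05. Rfc2 was 0.02 lower (SE 0.05) although its 3 mutants, at 111 to 113.58 FPKM, were all below its controls, at 113.62 to 116 FPKM. Rfc4 and Rfc5 differed by 0.01 and 0.04.

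Single-strand DNA is covered by replication protein A. Rpa2 measured 39.5, 39.1, 48.5 and 41.3 FPKM in wild-type, 40.8, 40.8 and 39.05 in Foxd1GC control and 40.3, 44.7 and 40.4 in Ntn1SPKO libraries, without separation of the groups. Rpa3, the smallest subunit, measured 87.4, 97.5, 146 and 98.7 FPKM in wild-type, 98.4, 99.6 and 126 in Foxd1GC control and 93.7, 99.3 and 90.8 in Ntn1SPKO libraries. It had the largest negative difference between mutants and controls, -0.18 on the log2 scale (SE 0.11, adjusted p = 0.477, 0.277 to 1), with overlap, and its highest values were in wild-type replicate 3 and control replicate 3. Its coding sequence is the shortest of the 44 at 363 bases, and Rpa1 differed by 0.04 between mutants and controls.

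On the lagging strand, the flap nuclease Fen1 measured 42.5, 44.6, 44.6 and 42.5 FPKM in wild-type, 39.8, 45.2 and 32.9 in Foxd1GC control and 43.5, 44.8 and 43.3 in Ntn1SPKO libraries. The ligase Lig1 measured 80.1, 83.7, 67.01 and 75.4 FPKM in wild-type, 71.1, 74.3 and 59.6 in Foxd1GC control and 76.5, 73.1 and 74.1 in Ntn1SPKO libraries. In both genes control replicate 3 was the lowest of the 10 libraries and control replicate 2 was the highest for Fen1 and among the mutants for Lig1. Mutants were 0.17 and 0.13 above controls on the log2 scale (SE 0.12 and 0.09) and 0.01 above and 0.03 below wild-type. Every 31-base word of Fen1 also occurs in Gm10143, which has no entry among the deposited values, so the level of Fen1 is uncertain.

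Nucleotide supply had the highest median log2 difference of the roles between mutants and controls, 0.19. Over its 3 genes this median was the value of Rrm1 alone. Rrm2, the S phase subunit of ribonucleotide reductase, measured 138, 143, 145 and 125 FPKM in wild-type, 104, 135 and 79.96 in Foxd1GC control and 140.1, 133 and 133 in Ntn1SPKO libraries. Control replicates 1 and 3 were below the other 8 libraries, and control replicate 2 lay among them. Mutants were 30.4% above controls, the largest increase of the 44 (log2 difference 0.38, SE 0.18, limma unadjusted p = 0.0741, adjusted p = 0.447, 0.133 to 1, and 0.19 to 0.57 with 1 library left out), and controls were 0.41 below wild-type (SE 0.17, unadjusted p = 0.0407, adjusted p = 0.665, 0.189 to 1). The latter came to -0.22 (unadjusted p = 0.133) without control replicate 3. Of its coding words 26.3% recur in other genes, among them Gm48455, listed at up to 16.8 FPKM, so reads may be split between them.

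Rrm1, the large subunit, measured 129, 135, 124 and 129 FPKM in wild-type, 124, 122 and 102 in Foxd1GC control and 133, 133 and 131 in Ntn1SPKO libraries. Its controls were below every other library, with control replicate 1 almost level with wild-type replicate 3, and mutants were 13.9% above controls (log2 difference 0.19, SE 0.08, adjusted p = 0.447, 0.215 to 1). The Rrm2 to Rrm1 ratio was 0.833, 1.10 and 0.781 in controls against 0.998 to 1.06 in mutants and 0.966 to 1.17 in wild-type libraries, with overlap. Tyms, thymidylate synthase, measured 124, 138, 169.9 and 135 FPKM in wild-type, 133, 146 and 136 in Foxd1GC control and 138, 142 and 134 in Ntn1SPKO libraries. It differed by 0.00 between mutants and controls and from wild-type by -0.03 in mutants and -0.02 in controls, and wild-type replicate 3 was highest. In all, 26 of the 44 genes shared no 31-base coding word with another gene and 12 shared over 10%. Among these, Mcm7 shared 51.1%, chiefly with Gm5487 (at most 0.0707 FPKM), and Rpa3 40.5%, chiefly with Gm6195 (at most 0.314 FPKM). Pole2 shared 13.6%, chiefly with Gm49384, listed at up to 18.6 FPKM, so reads may be split between them.

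Genes around the machinery were counted in the same fits. Of 25 other replication genes, 18 were higher and 7 lower in mutants than controls (median log2 difference 0.12). Among them 5 had an unadjusted p under 0.05 and were higher, such as Clspn, the fork checkpoint mediator Claspin (0.45), and Wdhd1 (0.29), and 1 was lower, Rnaseh2c (-0.17), against 5.49% and 5.17% of all genes. Against wild-type the same 25 split 14 to 11 in mutants (median 0.02) and 3 to 22 in controls (median -0.11, and -0.05 without control replicate 3). Of 26 genes of S phase entry, 18 were higher and 8 lower in mutants than controls (median 0.09), with Ccnd2, E2f3 and E2f7 higher at an unadjusted p under 0.05, a count of 3 against the same 5.49%. Cyclin D1 (Ccnd1) was 0.23 lower in mutants than wild types (SE 0.07, limma unadjusted p = 0.0120, adjusted p = 0.621), 0.44 lower in controls than wild types (SE 0.19, adjusted p = 0.665) and 0.20 higher in mutants than controls (SE 0.22, adjusted p = 0.657). Of 15 genes of nucleotide and chromatin supply, 14 were higher in mutants than controls (median 0.12, and 0.06 without control replicate 3) and 15 lower in controls than wild types (median -0.13, and -0.09 without it). The 27 G2/M genes were all higher in mutants than controls (median 0.25) and all lower in controls than wild types (median -0.29). Without control replicate 3 these became 25 higher and 2 lower with a median of 0.11, and 27 lower with a median of -0.15. With embryo sex as a covariate, against control replicate 2 alone, the first became 18 higher and 9 lower with a median of 0.04. No gene of these 4 lists had an adjusted p under 0.1 in any comparison.

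Replication genes with and without an 8-letter E2F word in their window were set side by side, as a description. The 15 with a word had a median log2 difference of 0.13 between mutants and controls (13 higher and 2 lower) and the 21 without had 0.05 (16 higher and 5 lower). Against wild-type the medians were 0.01 and -0.01 in mutants and -0.13 and -0.10 in controls.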

How the data were processed

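RNA from 10 libraries of E13.5 mouse kidneys was sequenced. Per the paper and the labels, the authors used Salmon with an index of Ensembl GRCm38 coding sequences, summed transcripts to genes by tximport, and tested with DESeq2. The values deposited by the authors are FPKM, and all 10 of their columns matched a labelled library. FPKM do not hold whole reads, so no count test was run and depth was estimated roughly from the smallest steps between low values.

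The 44 genes were taken by symbol. The members and all gene lists were chosen with earlier results of these data known. Genes averaging 0.5 FPKM or more in a comparison's libraries entered limma 3.58.1 (R 4.3.3, moderated with a trend on intensity) as log2(FPKM + 0.1), which understates changes of low genes, and p-values were adjusted by Benjamini-Hochberg over every gene tested. A call needed an adjusted p under 0.1. Each fit held the libraries of its 2 groups only. On simulated FPKM for Ntn1SPKO against control, 128 of 197 genes changed by 1 on the log2 scale were called, with 5 false calls. False calls were 21 for Ntn1SPKO against wild-type and 20 for control against wild-type. The noise was drawn independently for each gene and library, without shifts shared across a library, so these rates may not carry over to the real values. In the limma fit of the real values Ntn1, at -1.48 against controls, was not called (adjusted p = 0.447). Changes under 1 were not simulated, and the largest of the 44 genes between mutants and controls was 0.38. The simulation therefore does not show how often differences of that size would be called. Ratios were tested by exact two-sided permutation in scipy 1.17.1, where 3 against 3 libraries cannot go below 0.1 and 3 against 4 below 0.0571.

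Named with the value in every library were 22 genes set by role, and in each comparison the 3 with the smallest p and those with the largest increase and decrease. Others named were chosen after their values were seen. Alternatives were the offset (1 or 0.01), the filter, the scaling, the trend, a fit of all 10 libraries, a replicate block, embryo sex as a covariate and leaving out each library, and, added after the data were seen, members of long coding sequence only, and leaving out 2 libraries that stood apart. Sequences are from RefSeq tables of GRCm38.p6.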

Additional observations from a re-analysis of the deposited data

Results flagged for a closer look

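Among the 44 replication genes, 5 had a wild-type library far from the other 3, with a gap to the nearest library that took up 0.860 to 0.972 of the range of the group. These were Orc2 in replicate 2 (30.9 FPKM, the low end), Orc4 in replicate 4 (65.9 FPKM), Cdt1 in replicate 4 (28.9 FPKM), Gins4 in replicate 3 (49.96 FPKM) and Rfc4 in replicate 3 (76.6 FPKM), the last 4 at the high end. Chance flags about 5% of groups, or 1 in 20, and the share flagged over all genes was not counted. The 5 are therefore not read as a trait of the replication genes. The control and mutant groups of 3 libraries were too small for this rule.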

How the results depend on the processing

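In none of the settings tried did a replication gene pass an adjusted p of 0.1, except in Ntn1SPKO against wild-type with embryo sex as a covariate, where 16 did and where 3249 genes were called over the table. For Ntn1SPKO against Foxd1GC control, 10 genes of the table were called. The count was 22 with no filter, 0 in a fit of all 10 libraries, 4 with a replicate block and 3 to 131 with 1 library left out. The 7 replication genes at an unadjusted p under 0.05 became 4 without the intensity trend, 5 with the replicate block and 1 to 14 with 1 library left out. Their median of 0.11 became 0.0022 with embryo sex and 0.05 to 0.14 with 1 library left out.

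For Ntn1SPKO against wild-type, 10 called genes became 2 with an offset of 1, 20 with no filter, 16 without the trend, 0 in a fit of all 10 libraries, 6 with a replicate block and 1 to 30 with 1 library left out. The count of 0 replication genes at an unadjusted p under 0.05 became 19 with embryo sex and 0 to 1 with 1 library left out. Their median of -0.002 became 0.054 with the same total per library, 0.067 when mitochondrial and globin genes were left out of that total, -0.037 with embryo sex, 0.040 over long genes only and -0.02 to 0.01 with 1 library left out.

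For Foxd1GC control against wild-type, 1 called gene became 2 with an offset of 1 or 0.01, 9 with no filter, 5 without the trend, 0 in a fit of all 10 libraries, 13 without wild-type replicate 3 and control replicate 3, and 3 to 26 with 1 library left out. The 5 replication genes at an unadjusted p under 0.05 became 2 with quantile normalization, 1 with the same total with or without mitochondrial and globin genes, 3 without the trend, 2 with a replicate block, 8 with embryo sex, 3 without wild-type replicate 3 and control replicate 3, and 1 to 9 with 1 library left out. Their median of -0.12 became -0.048 without the latter 2 libraries and -0.16 to -0.08 with 1 library left out. The cause of these shifts was not tested.

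The log2 difference of the Orc1 to Orc2 ratio between mutants and controls, 0.08, turned to -0.29 without mutant replicate 2 and -0.21 without control replicate 2, and ran from -0.29 to 0.39 with 1 library left out. The sign of the difference turned in at least 1 alternative for 24 of the 44 genes between mutants and controls, 29 between mutants and wild types and 17 between controls and wild types. Between mutants and controls Cdc6, Mcm3, Mcm4, Rrm2 and Rpa3 did not turn. Gmnn, Mcm7, Mcm10, Pola2, Prim2, Pold3, Pole2 and Fen1 turned only with embryo sex as a covariate. That fit set the mutants against control replicate 2 alone, so these turns rest on 1 library. Deviations of same-numbered libraries correlated by -0.04 to 0.08 across genes, so replicate numbers were not taken to pair libraries. Depth is known only roughly, and 3 or 4 libraries a group limit the precision of small differences.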
